A study of Mus musculus with 27 samples.

Results

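The windows described here were the most CpG-dense of a mouse genome that the submitters had divided into windows named for 100 CpG positions each. A window was included when it lay on an autosome, had a methylation value in all 27 libraries and spanned under 1000 bp from its first to its last base. The rule used length and completeness and no methylation level. It kept 15884 windows of the 444250 nuclear windows with complete values, or 3.575%. A further 1008 autosomal windows under 1000 bp lacked a value in at least 1 library and were left out.

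Methylation was measured by whole-genome bisulfite sequencing of sonicated DNA in 3 mouse embryonic stem cell lines, at 3 times and in 3 libraries for each line and time. TET_KO lacks Tet1, Tet2 and Tet3 and was derived from TET_WT. DNMT_WT gave rise to a line without Dnmt1, Dnmt3a and Dnmt3b that was not analysed here. All lines were grown as embryonic stem cells in 2i/Lif (D0) and carried towards epiblast-like cells for 1 day (D1) or 2 days (D2), so every group shares the 2i/Lif starting point. Nothing in the labels ties replicates to separate cultures, and the spread behind each p-value may therefore be technical. Whether TET_KO is a single clone is not given in the sources used here. DNMT_WT and TET_WT are separate lines that are both labelled wild type, so their comparison is not one of the Tet genes. Line cannot be told apart from genotype or history in any comparison between lines. The deposited values are percentages without read counts, which leaves their depth unknown and allows no interval for counting error.

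CpG islands are stretches where CpG dinucleotides have escaped the loss seen over most of a mammalian genome, and most lie at gene starts and stay unmethylated in most cell types. DNMT3A and DNMT3B add methyl groups to cytosine, DNMT1 with UHRF1 copies them after replication, and TET1, TET2 and TET3 oxidise them, which leads to their removal. Cells in 2i/Lif have low methylation genome-wide and gain it on the way to epiblast-like cells. Known exceptions to the unmethylated state of islands are the control regions of imprinted genes, methylated on a single parental allele, and the promoters of many germline genes, methylated in somatic cells.

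A high CpG density follows from the rule, and how high it was could be read where a window holds a promoter. RefSeq promoters of the mouse build GRCm38.p6, each reaching from 250 bases before to 50 bases after a transcription start, were placed in the windows by coordinate. Of 32851 promoters, 2889 lay whole inside 2481 of the 15884 dense windows, and they held a median of 25 CpG (quartiles 20 and 30) in 300 bp with a median GC content of 64.67%. The 20917 promoters whole inside other windows held a median of 4 CpG and 49% GC. At the density of its promoter a dense window held a median of 51.68 CpG, near the 50 that a window would hold if the cytosines of both strands were counted. The definition of the windows is not given in the sources used here. Promoters inside dense windows of 500 to under 750 bp held a median of 25 CpG, and those in longer dense windows held 20.

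The promoters of 6 genes are printed because they show the range of methylation found among these windows. Dnmt1 and Uhrf1, which encode the maintenance enzyme and its partner, lay in windows near 0. Dazl, Sycp1, Slc25a31 and Mael, genes of germ cells and meiosis, lay in windows that gained methylation. Letters run 5′ to 3′ on the strand of the gene, and capitals mark CpG. The Dnmt1 promoter is chr9:20952574-20952873 on the minus strand, with 33 CpG in a window of 628 bp. The Uhrf1 promoter is chr17:56303087-56303386 on the plus strand, with 12 CpG in a window just under the limit of 1000 bp. Dazl is at chr17:50293571-50293870 on the minus strand with 28 CpG in a window of 665 bp. Sycp1 is at chr3:102936051-102936350 on the minus strand with 21 CpG in a window of 571 bp. Slc25a31 is at chr3:40708621-40708920 on the plus strand with 22 CpG in a window of 654 bp. Mael is at chr1:166238695-166238994 on the minus strand with 24 CpG in a window of 589 bp.
Dnmt1: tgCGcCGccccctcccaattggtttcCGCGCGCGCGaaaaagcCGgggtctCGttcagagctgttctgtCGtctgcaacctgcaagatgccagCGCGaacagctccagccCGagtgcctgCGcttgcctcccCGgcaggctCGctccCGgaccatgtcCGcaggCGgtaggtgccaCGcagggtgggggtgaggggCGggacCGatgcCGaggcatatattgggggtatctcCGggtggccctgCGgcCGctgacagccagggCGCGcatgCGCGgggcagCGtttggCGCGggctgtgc
Uhrf1: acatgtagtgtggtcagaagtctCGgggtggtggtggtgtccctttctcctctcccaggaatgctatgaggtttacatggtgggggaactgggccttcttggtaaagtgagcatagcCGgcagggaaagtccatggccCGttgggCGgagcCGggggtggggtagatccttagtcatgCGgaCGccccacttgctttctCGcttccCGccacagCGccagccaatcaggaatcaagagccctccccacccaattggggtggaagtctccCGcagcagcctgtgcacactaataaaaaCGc
Dazl: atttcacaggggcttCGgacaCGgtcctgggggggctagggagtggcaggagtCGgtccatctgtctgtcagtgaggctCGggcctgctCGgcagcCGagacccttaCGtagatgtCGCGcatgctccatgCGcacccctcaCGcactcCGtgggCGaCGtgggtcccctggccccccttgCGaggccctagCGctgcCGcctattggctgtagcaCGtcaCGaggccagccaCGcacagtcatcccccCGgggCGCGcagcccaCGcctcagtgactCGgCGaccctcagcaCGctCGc
Sycp1: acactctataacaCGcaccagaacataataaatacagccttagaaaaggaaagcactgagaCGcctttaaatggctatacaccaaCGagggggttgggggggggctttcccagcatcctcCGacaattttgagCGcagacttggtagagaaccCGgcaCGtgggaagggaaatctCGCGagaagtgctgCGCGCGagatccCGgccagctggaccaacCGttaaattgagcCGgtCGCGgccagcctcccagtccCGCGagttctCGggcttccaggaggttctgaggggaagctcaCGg
Slc25a31: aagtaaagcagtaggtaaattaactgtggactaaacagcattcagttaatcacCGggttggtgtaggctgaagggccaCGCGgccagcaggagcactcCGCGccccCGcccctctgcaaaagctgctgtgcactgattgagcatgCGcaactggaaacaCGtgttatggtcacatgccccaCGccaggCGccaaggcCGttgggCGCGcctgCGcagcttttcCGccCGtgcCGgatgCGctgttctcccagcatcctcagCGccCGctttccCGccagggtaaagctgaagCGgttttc
Mael: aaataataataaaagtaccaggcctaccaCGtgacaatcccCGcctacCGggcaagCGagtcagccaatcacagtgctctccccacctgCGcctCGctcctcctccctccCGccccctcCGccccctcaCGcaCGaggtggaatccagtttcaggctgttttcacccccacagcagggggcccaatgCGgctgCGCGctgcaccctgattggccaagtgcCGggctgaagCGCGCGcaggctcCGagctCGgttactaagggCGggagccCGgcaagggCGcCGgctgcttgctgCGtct

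These promoters were searched on both strands for 3 exact strings, none of which contains another. The E-box CACGTG stood in the promoters of Sycp1, Slc25a31 and Mael, and in 10.59% of the 2889 promoters inside dense windows against 7.15% of all 32851. The E2F string GCGGGA stood in the promoters of Dnmt1, Uhrf1, Sycp1, Slc25a31 and Mael, and in 43.65% of promoters inside dense windows against 19.98% of all. An NRF1 string of 10 letters stood in the Dnmt1 promoter, and in 2.285% of promoters inside dense windows against 0.9711% of all. Each string contains at least 1 CpG, so its frequency moves with CpG density. The Dazl promoter held none of the strings in these 300 bp. Among the 157 promoters inside windows that reached 10% methylation in some group, the E-box stood in 9.554%, close to the share of all promoters in dense windows. In the same 157 the E2F string stood in 38.22%, under the 43.65% of all promoters in dense windows, and the NRF1 string in 2.548%. These differences were not tested.

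Most dense windows were almost free of methylation in every line and on every day. In TET_WT the mean over the 15884 windows began at 1.40% ± 0.0237 (SD, n = 3) on D0, was 1.66% ± 0.0508 a day later and stood at 2.58% ± 0.0433 on D2. The TET_KO means on these days were 3.19% ± 0.0841, 3.52% ± 0.0155 and 4.203% ± 0.108. Those of DNMT_WT were 0.628% ± 0.00633, 1.06% ± 0.0154 and 3.09% ± 0.0400. The order of the line means changed with time, since DNMT_WT had the lowest mean on D0 and lay above TET_WT on D2. The median window did not show DNMT_WT lowest on D0. Library medians were then 0.2%, 0.1681% and 0.142% in DNMT_WT and 0.1182%, 0.1488% and 0.1443% in TET_WT, which overlapped. Over all 444250 windows the means on D0 and D2 were 25.5% and 52.5% in TET_WT, 51.7% and 70.8% in TET_KO, and 3.20% and 49.6% in DNMT_WT. Between these 2 sets stood the 19111 windows that flank a dense window, with a median length of 3059 bp.

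**Figure D1:**
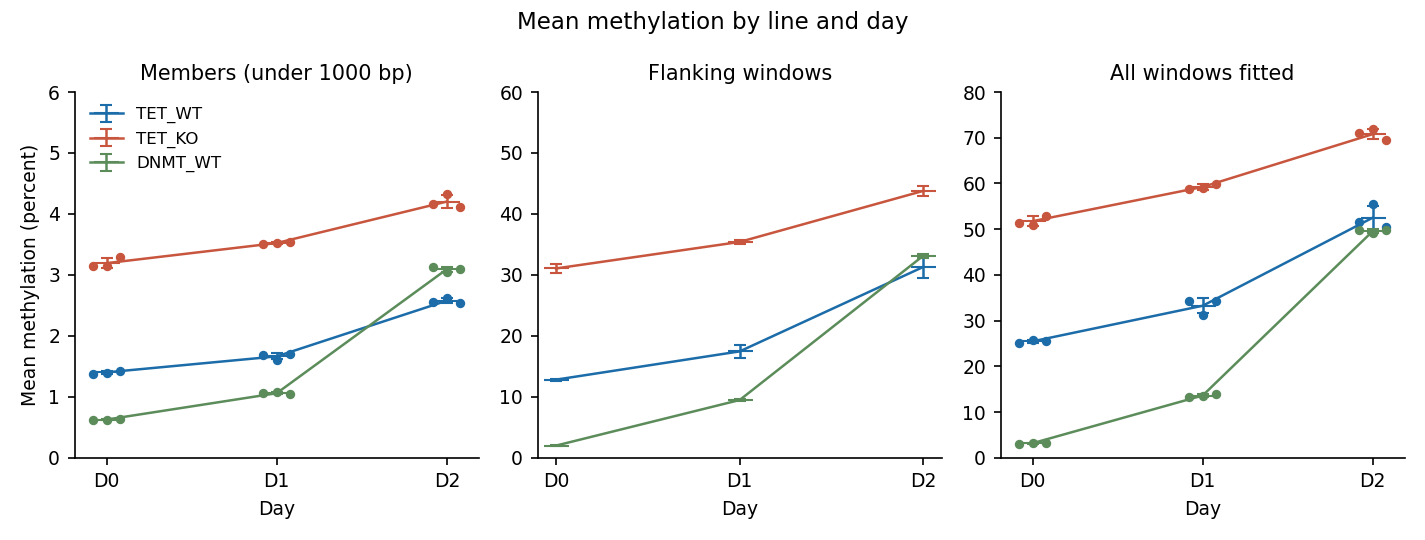
Mean methylation in percent (y axis, with a different range in each panel) on D0, D1 and D2 (x axis) for TET_WT, TET_KO and DNMT_WT, in the dense windows, their flanking windows and all windows; dots are libraries where drawn, and bars are the mean with the SD of 3 libraries. The dense windows stay between 0.628% and 4.203% while the mean over all windows reaches 70.8% in TET_KO on D2.

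The flanking windows averaged 12.82% in TET_WT on D0 and 31.32% on D2, 31.06% and 43.79% in TET_KO, and 2.00% and 33.16% in DNMT_WT. In TET_WT on D0 the median dense window had 0.1371% methylation, and 46.67% of the single library values were exactly 0. In all, 14334 dense windows, or 90.24%, stayed under 10% in all 9 group means, and 12916 stayed under 5%. They made up 79.51% of the 18028 windows of the whole table that were under 10% throughout. The remaining 1550 dense windows reached 10% in at least 1 group mean.

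Length within the rule separated the windows further. In TET_WT on D0 the 6725 windows under 500 bp averaged 0.295% ± 0.0217 (SD, n = 3), the 5207 of 500 to under 750 bp 0.854% ± 0.0148 and the 3952 of 750 bp or more 4.01% ± 0.0506. In TET_KO on D0 the same classes averaged 0.558%, 2.26% and 8.90%, and in DNMT_WT on D2 they averaged 0.676%, 2.45% and 8.06%. Windows of 1000 to under 3000 bp, outside the rule, stood at 22.61%, 47.28% and 47.79% in those 3 groups. At the edge of the rule, windows within 50 bp under the limit averaged 3.31% in TET_WT on D0 and those within the first 50 bp from it 4.77%. In TET_KO on D2 these neighbours averaged 12.57% and 15.37%, so the limit of 1000 bp does not mark a sharp step. The level did not rise steadily with length, since in TET_WT on D0 the 3.31% just under the limit lay below the 4.01% of its class.

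**Figure D2:**
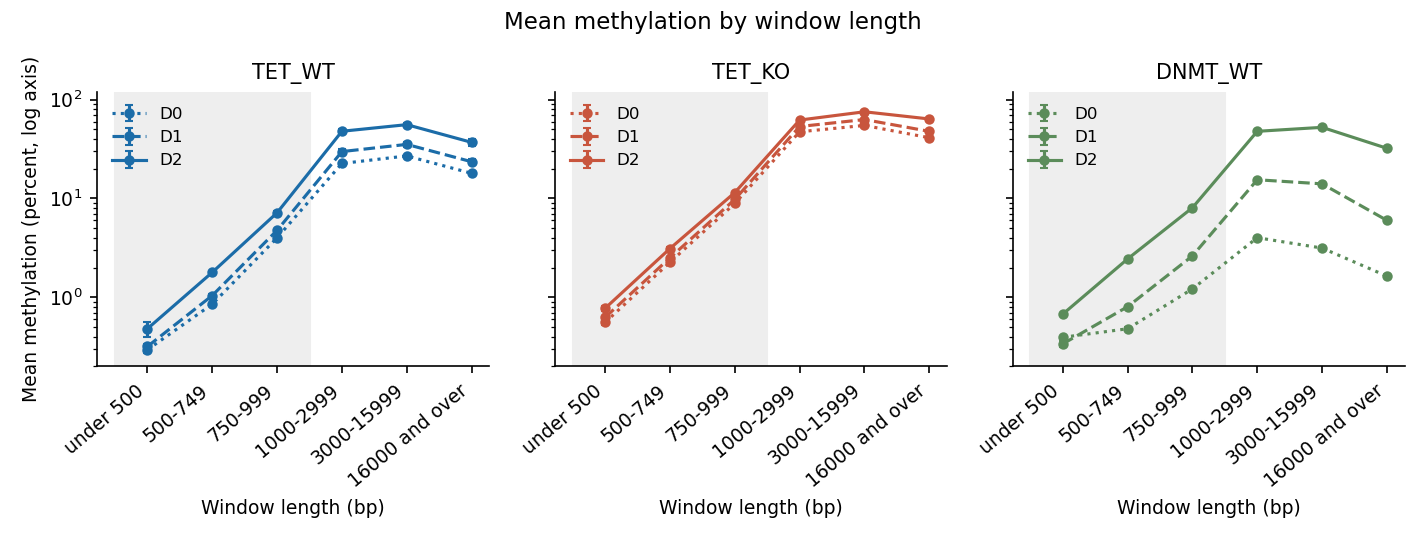
Mean methylation in percent on a log axis (y) by window length class in bp (x) for each line, with D0, D1 and D2 as dotted, dashed and solid lines; points are means over 3 libraries with their SD, and the grey area marks the classes inside the rule. In TET_WT on D0 the mean goes from 0.295% under 500 bp to 4.01% in the longest class inside the rule and 22.61% in the class next to it.

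Dense windows lay mainly at genes, and pseudogenes were left out when gene ends and bodies were placed. A transcription start fell inside 5646 of them (35.55%, against 6.187% of all windows), and another 7338 (46.2%) lay within 1000 bp of a gene end, counting either end of a gene. The body of a gene held 2371 (14.93%), and 529 (3.33%) lay outside genes, where 37.71% of all windows lie. Methylation followed this order. In TET_WT on D0 the means were 0.410% at starts, 0.503% near gene ends, 2.25% in gene bodies and 20.65% outside genes. In TET_KO on D0 they were 1.25%, 1.72%, 6.56% and 29.23%, and in DNMT_WT on D2 they were 1.501%, 1.93%, 5.89% and 23.68%.

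Dense windows with stable high methylation were few and rarely at genes. Over 50% methylation in all 6 TET_WT and TET_KO group means was found at 146 windows, of which 119 lay outside genes, 24 in gene bodies, 3 near gene ends and 0 at a start. In DNMT_WT on D0, 0 windows had a group mean over 50%. A window at chr10:105677276-105678159 outside genes stood at 80.3%, 72.0% and 74.6% in TET_WT on D0 and at 10.3%, 9.71% and 4.86% in DNMT_WT. Dense windows also cluster: 6243 dense windows had no dense neighbour, 5156 came in pairs and 4485 in runs of 3 or more. Within those runs the 2554 windows at an edge averaged 2.00% in TET_KO on D0 and the 1931 interior ones 1.05%.

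Loss of the 3 TET enzymes was compared with the parental line on each day. A window was called changed when limma gave an adjusted p under 0.05 (Benjamini-Hochberg over all 444250 windows) with the group means 10 or more percentage points apart. On D0, 712 dense windows (4.48%) were called higher in TET_KO, where the background over all windows was 92.9%, and 11 were called lower, where the background was 0.0223%. On D1 the counts were 736 higher (background 92.6%) and 10 lower (0.0248%), and on D2 they were 611 higher (84.3%) and 13 lower (0.0542%). The share of dense windows called higher was thus far under the background on each day. At any size, 3815 dense windows were higher on D0 at an adjusted p under 0.05, where the background was 96.1%, and 117 were lower (0.0639%). The median difference over the dense windows on D0 was 0.3171 points, against 27.53 over all windows and 18.16 over the flanks.

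These directions are on the percent scale itself. The median window of a library was 30.4 points higher in TET_KO than in TET_WT on D0, and once every library had its own median subtracted 49 dense windows were called higher and 15619 lower. Dense windows thus gained less than the typical window, and the gains given below are in uncentred percent. Of the D0 windows recomputed this way, centring kept the higher ones at Lhx9, Fat1, Plec, Soga3 and chromosome 14 past the threshold in the same direction. The lower ones at Peg13, Peg3, Gnasas1, Gm51701, Rgcc and chromosome 1 stayed called, but centring could not test them. Subtracting a higher median from TET_KO only makes such a difference larger. Sycp1 (5.148 points) and Dlk1 (9.475) kept positive differences that were no longer called. Dazl was left with a difference of only 0.1403 points, and the other higher ones turned negative.

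**Figure D3:**
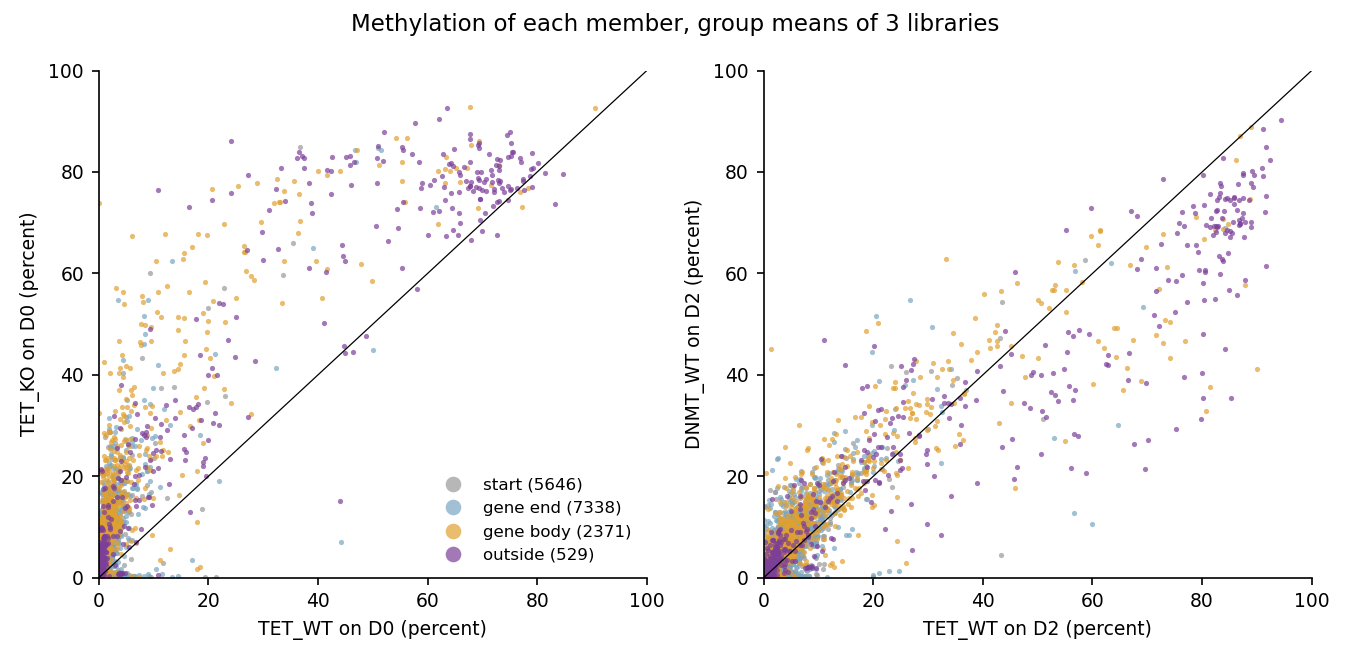
Methylation in percent of each dense window, as the mean of 3 libraries, coloured by place: TET_KO (y) against TET_WT (x) on D0 at left and DNMT_WT (y) against TET_WT (x) on D2 at right, with the line of equal values. At left 712 windows are called above the line and 11 below it; at right 149 are called above and 161 below.

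The windows called higher on D0 are given by length and place. The calls covered 14 of the 6725 windows under 500 bp, 146 of the 5207 of 500 to under 750 bp and 552 of the 3952 longer ones. By place they covered 66 of 5646 windows at starts, 172 of 7338 near gene ends, 316 of 2371 in gene bodies and 158 of 529 outside genes. In runs of 3 or more dense windows, 79 of 2554 edge windows and 22 of 1931 interior windows were called higher. The mean of TET_KO reached 10% on D0 while that of TET_WT stayed under 10% at 658 windows, and the reverse held at 14.

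The dense window with the largest gain at a gene was in the body of Lhx9, a LIM homeobox gene needed for gonad formation, at chr1:138841661-138842298. The TET_WT libraries held 0.179%, 0% and 0% on D0, and the TET_KO libraries held 81.0%, 74.2% and 66.1%. The groups were far apart, with a difference of 73.7 points (SE 2.48, limma adjusted p = 1.8e-18). In DNMT_WT the window stayed at or under 1.81% in all 9 libraries, and in TET_WT the highest of 9 values was 7.01%.

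Fat1, which encodes a large cadherin, had a window of 988 bp at chr8:44951036-44952023 in its body. TET_WT held 3.17%, 6.43% and 8.70% on D0 and TET_KO 67.7%, 65.3% and 69.0%, a difference of 61.2 points (SE 2.64, limma adjusted p = 3.93e-17). Unlike at Lhx9, both wild-type lines gained here by D2, to 40.8%, 51.7% and 37.5% in TET_WT and to 55.6%, 55.4% and 58.5% in DNMT_WT. Windows in the bodies of Plec, which encodes the linker protein plectin, and Soga3 were 55.6 and 54.0 points higher in TET_KO on D0. Outside genes, the window at chr14:89898559-89899286 went from 9.47%, 8.60% and 14.2% in TET_WT to 76.3%, 73.9% and 79.2% in TET_KO, 65.7 points higher.

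Of the 11 windows lower in TET_KO on D0, 5 were at imprinted loci: Peg13, Peg3, Gnasas1 and a pair in Gnas. Peg13 is an imprinted noncoding RNA, and its window at chr15:72809399-72810122 lay within 1000 bp of an end of the gene. TET_WT held 42.0%, 47.9% and 42.6% and TET_KO 10.4%, 3.25% and 7.48%, a fall of 37.1 points (SE 2.86, limma adjusted p = 7.41e-13) with no overlap. By D2 TET_WT stood at 64.6%, 61.8% and 53.5% and TET_KO at 5.18%, 7.71% and 4.11%. DNMT_WT was also low at this window, between 0.269% and 17.0% over its 9 libraries.

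Peg3, an imprinted zinc-finger gene, had 18%, 12.7% and 9.45% at chr7:6729454-6730331 in TET_WT on D0, and 0.758%, 0% and 0% in TET_KO. The difference was -13.1 points (SE 1.88, limma adjusted p = 1.65e-07), and DNMT_WT held at most 1.92% over 9 libraries. At Gnasas1, the antisense transcript of the Gnas locus, the difference was -14.0 points. The 2 windows in Gnas, of 628 and 671 bp, were each 16.3 points lower. Strand was not given for the values and the genes overlap, so these windows belong to the locus rather than to either transcript.

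The other 6 windows lower on D0 were of mixed kinds. Gm51701, a predicted gene, had its start inside chr9:123924847-123925519, with 20.6%, 22.1% and 15.4% in TET_WT and 0%, 0.366% and 0.382% in TET_KO. The difference was -19.1 points (SE 1.58, limma adjusted p = 3.13e-12). DNMT_WT held 2.04%, 2.02% and 2.91% there on D0 and 53.5%, 54.8% and 54.9% on D2, while TET_KO held at most 1.29% on all days. Rgcc, a regulator of the cell cycle, was 13.6 points lower, and a window at chr1:184154448-184155337 outside genes was 28.9 points lower. The last 3, at Pomgnt1, at Brpf3 and at chr12:118836681-118837185, each rested on a single TET_WT library, at 64.0%, 34.9% and 31.7%, with the other TET_WT values at or under 0.532%.

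**Figure D4:**
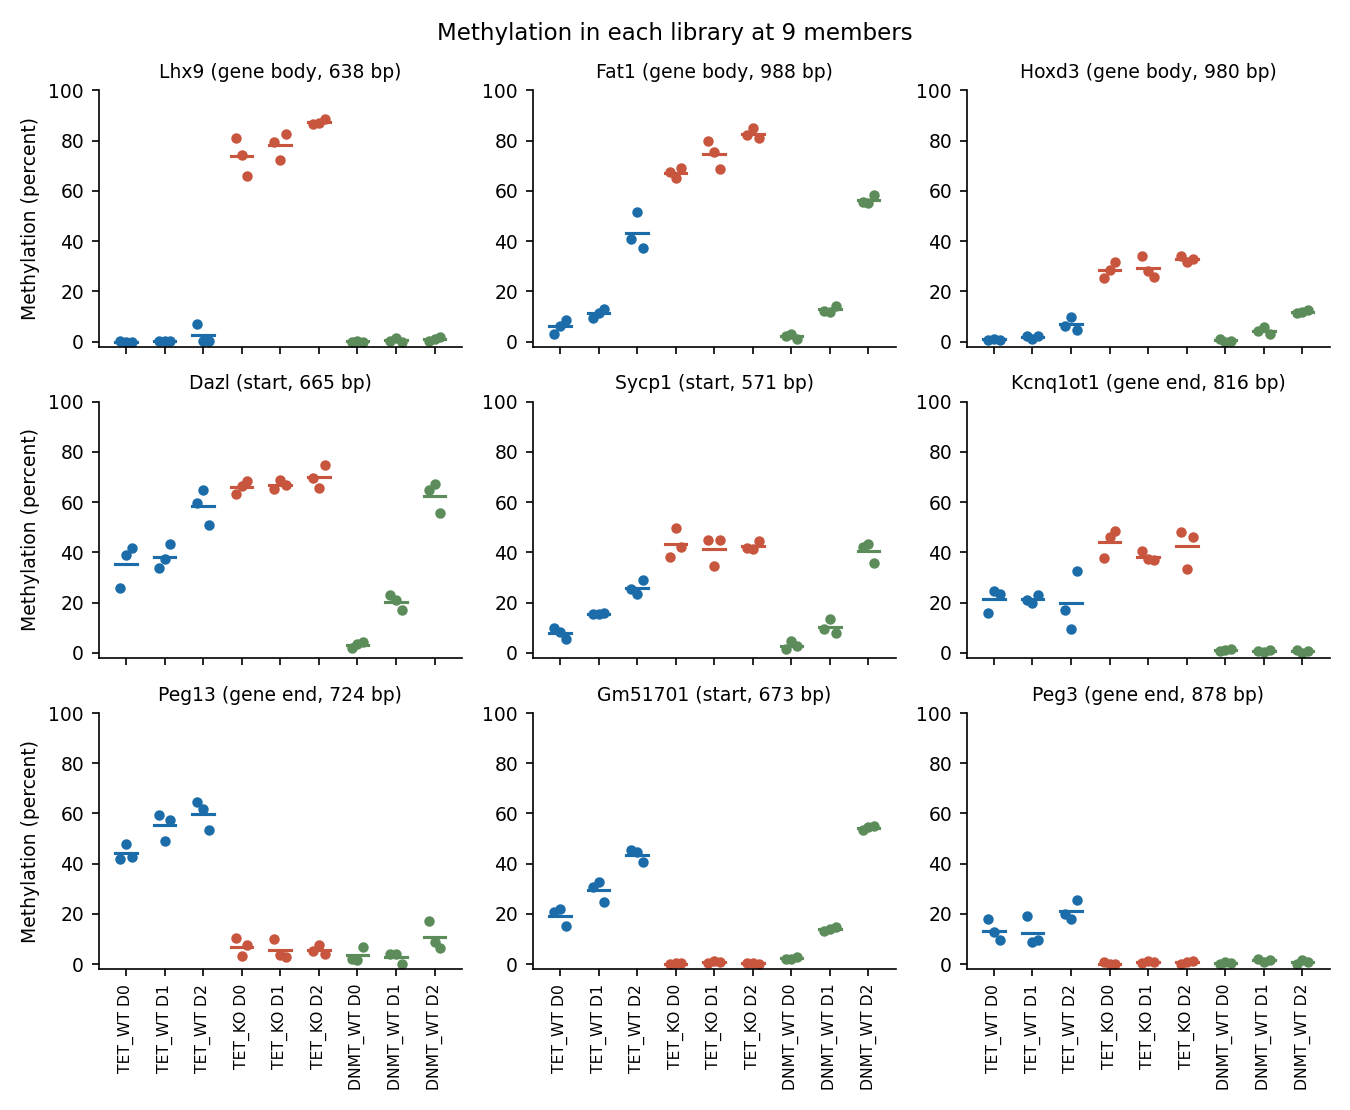
Methylation in percent (y) of 9 dense windows in each library of the 9 groups (x); dots are libraries, the short lines group means, and the title of each panel gives place and length. Lhx9 is high in TET_KO alone among the lines, Dazl and Sycp1 are higher in TET_KO than in TET_WT on D0 and higher on D2 than on D0 in both wild-type lines, and Peg13, Gm51701 and Peg3 are lower in TET_KO than in TET_WT.

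Gene lists give the spread of these gains over roles, as counts and medians and without a test of the list. The germline and meiosis list had 22 dense windows at 15 of its 49 genes, of which 6 were called higher in TET_KO on D0 and 0 lower, with a median difference of 5.292 points. Over all 15884 dense windows the median was 0.3171 and 712 were called higher, where 92.9% of all windows were. With p unadjusted, the germline list again had 0 windows lower at 10 points. Dazl encodes an RNA-binding protein of germ cells. Its start window had 25.7%, 39.0% and 41.8% in TET_WT on D0 and 63.4%, 66.4% and 68.3% in TET_KO, 30.5 points apart (SE 3.53, limma adjusted p = 3.17e-09) with no overlap. Sycp1, a component of the synaptonemal complex, had 9.85%, 8.19% and 5.41% in TET_WT and 38.1%, 49.8% and 42.1% in TET_KO, 35.5 points apart (limma adjusted p = 2.37e-13).

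At Sycp3, which encodes another component of that complex, TET_WT held 13.8%, 14.1% and 13.1% on D0 and TET_KO 40.4%, 36.0% and 36.5%, 24.0 points higher. Stra8, which is needed to enter meiosis, was 23.0 points higher in TET_KO. Mael, a piRNA pathway gene, had 8.80%, 8.11% and 13.5% in TET_WT and 26.4%, 20.9% and 23.5% in TET_KO, a difference of 13.5 points. Slc25a31, a testis ADP/ATP carrier, had 24.3%, 23.6% and 21.3% in TET_WT and 27.2%, 33.6% and 47.1% in TET_KO. Its difference of 12.8 points fell to 7.28 (limma adjusted p = 0.0549) without the third TET_KO library. With all libraries the windows of the 4 printed germline promoters were called, while the Dnmt1 and Uhrf1 windows did not reach the threshold. The printed promoters were chosen with these values known, so this contrast follows from the choice.

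The clustered protocadherins, cell surface proteins whose alternative promoters lie in long tandem arrays, had the largest median difference of the lists, 8.877 points over 25 dense windows, with 11 called higher on D0. At Pcdhgb5 TET_WT held 5.70%, 4.07% and 6.86% on D0 and TET_KO 32.8%, 29.3% and 33.7%, 26.4 points higher. The window at Pcdhga1 was 29.3 points higher. The variable exons of this cluster share sequence and overlap in annotation, so a window is assigned to the locus and not to a single isoform.

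The homeobox and Pax list of developmental regulators had 262 dense windows, the most of the 12 lists. Of these 10 were called higher on D0, a share near the 4.48% of all dense windows, with a median difference of 0.8906 points. Irx2 had 2.75%, 1.53% and 2.06% in TET_WT and 24.8%, 22.0% and 29.4% in TET_KO, 23.3 points higher. Lhx2, which acts in forebrain and limb development, was 22.4 points higher. Hox genes, which pattern the body axis, had 66 dense windows and 5 calls, at Hoxd3 (a pair of windows), Hoxd12, Hoxb1 and Hoxa3. The larger gain at Hoxd3 went from 0.872%, 1.15% and 0.825% in TET_WT to 25.3%, 28.7% and 31.9% in TET_KO, 27.7 points. At Hoxa3 the gain of 10.1 points fell under the limit without the second TET_KO library (9.87) or the third TET_WT library (9.64).

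Mesoderm and endoderm regulators had 9 of 87 dense windows called higher on D0, with a median of 0.8583 points. Over all dense windows 712 of 15884 were called higher, and over all windows 92.9%. Foxf1, which acts in lateral mesoderm, had 4.56%, 3.69% and 3.42% in TET_WT and 24.5%, 19.8% and 27.4% in TET_KO (limma adjusted p = 8.89e-13). Tbx1, which acts in the pharyngeal region, was 15.0 points higher. Blood and endothelial genes had 6 of 86, with a median of 0.6888. Gata2, a regulator of blood stem cells, had 5.14%, 7.90% and 3.97% in TET_WT and 23.8%, 25.4% and 32.9% in TET_KO, 21.7 points higher in a window of its body. Flt4, the receptor VEGFR-3 of lymphatic endothelium, was 16.0 points higher with 2.44%, 3.19% and 2.41% in TET_WT and 17.9%, 18.3% and 19.9% in TET_KO.

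Imprinted loci moved both ways on D0, with 6 of 59 dense windows called higher and 5 lower, and a median of 0.9644 points. Kcnq1ot1, the noncoding RNA of an imprinting centre, had 16.0%, 24.6% and 23.4% in TET_WT and 37.7%, 46.0% and 48.7% in TET_KO, 22.9 points higher (SE 3.70, limma adjusted p = 1.38e-06). Its window stayed at or under 1.69% in all 9 DNMT_WT libraries. Mest was 18.8 points higher, with 22.8%, 22.0% and 18.3% against 44.6%, 27.1% and 47.6%. Dlk1, a Notch-like growth regulator, was 39.9 points higher, with 8.10%, 9.17% and 11.6% against 45.0%, 50.4% and 52.9%. Within Gnas the direction depended on the window, since those of 940 and 846 bp were 21.9 and 12.1 points higher in TET_KO while those of 628 and 671 bp were lower. At Grb10, an adaptor that restrains growth, the window at chr11:12037683-12038452 was 10.8 points higher. The other dense windows at Grb10 and Dlk1 were not called on D0.

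The pluripotency, ubiquitous and ribosomal protein lists had dense windows with small differences. Expression was not measured here. The share called higher was also low over all dense windows, and lowest at starts. The naive and formative pluripotency list had 86 dense windows with 0 called by limma on D0, none at 10 points with p unadjusted, and 15 higher at any size. The ubiquitous list had 0 of 44 called, also 0 at 10 points with p unadjusted, and 2 higher at any size. Their medians were 0.1809 and 0.108 points. Ribosomal protein genes had 1 of 87 called higher, with a median of 0.146. The list of genes used by cells resembling the early embryo at the start of zygotic transcription had 2 dense windows, too few to describe.

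The DNA methylation machinery had 63 dense windows and 1 call on D0, at Dnmt3b. That window of 872 bp holds a start of Dnmt3b and had 3.44%, 4.15% and 6.10% in TET_WT and 15.3%, 14.5% and 21.3% in TET_KO, 12.5 points higher (SE 1.67, limma adjusted p = 4.9e-08). An adjoining window of 307 bp at the same gene averaged 0% and 0.463%. The Tet3 start window of 909 bp averaged 1.38% and 7.26%, 5.88 points apart and under the limit of 10. The windows of Dnmt1 (0.254% and 0.251%), Uhrf1 (0.0434% and 0.257%) and Tet1 (0% and 0.167%) stayed near 0 in both lines. Methylation of these windows is no check of whether the Tet genes are deleted.

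On D2 further windows separated the lines. Ywhag, which encodes a 14-3-3 protein, had a body window with 12.2%, 24.4% and 19.4% in TET_WT on D2 and 77.3%, 71.9% and 67.6% in TET_KO, 53.6 points higher. Pkhd1 was 60.1 points higher. Of the 13 windows lower in TET_KO on D2, 2 were high in 1 library alone. Among the 13, Peg13 was 54.3 points lower and Gm51701 43.2. Airn, the noncoding RNA of the Igf2r imprinting centre, had 36.8%, 23.4% and 8.50% in TET_WT and 0.866%, 1.89% and 4.29% in TET_KO. It was 20.6 points lower without overlap, although its TET_WT replicates were far apart. Ppp1r15b and Gpc6 were 20.2 and 22.8 points lower.

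The differentiation steps were compared within each line. From D0 to D1 limma called 72 dense windows higher in TET_WT (background 27.6%) and 10 lower (0.00675%), and 64 higher in TET_KO (background 20.1%). In TET_KO limma called 0 lower by 10 points (background 0.00225%), with 1 such window at p unadjusted and 170 lower at any size (background 0.0612%). In DNMT_WT 147 were called higher (background 49%) and 4 lower (0.00135%). From D1 to D2 the counts were 237 higher (background 88%) and 6 lower (0.00225%) in TET_WT, 81 higher (65.8%) and 8 lower (0.00428%) in TET_KO, and 769 higher (94.9%) and 4 lower (0.0009%) in DNMT_WT. The second day thus called more dense windows than the first in each line, and all counts of gains were far under their background. Falls were few but made up a larger share of dense windows than of all windows. The exception was TET_KO on the first day, with 0 called. Some falls were at windows with 1 library at 20% or more and the other 26 under 10%. These were 3 of the 10 in TET_WT on the first day and 1 of the 6 on the second. In DNMT_WT they were 3 of the 4 on each day. The median change over dense windows on the second day was 0.2162 points in TET_WT, against 20.36 over all windows, and 0.4031 in DNMT_WT, against 39.21.

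Of the 237 gains of TET_WT on the second day, 117 lay in gene bodies, 75 outside genes, 30 near gene ends and 15 at starts. Zbtb7a, a transcriptional repressor, had 1.62%, 1.70% and 0.515% on D1 and 25.5%, 31.0% and 26.8% on D2, a rise of 26.5 points (SE 2.64, limma adjusted p = 2.84e-10). Snrnp70, a component of the spliceosome, rose by 27.1 points near an end of the gene, from 5.17%, 2.62% and 3.34% to 21.8%, 36.9% and 33.8%. Srrm2, a splicing protein, rose by the same amount in its body from a high level, 61.4%, 54.4% and 63.8%, to 88.0%, 91.0% and 81.9%. Mxi1 rose by 32.2 points, Fat1 by 32.0 and Dazl by 20.4. The largest fall named was 19.7 points, at chr12:63119694-63120559 outside genes. Of the 6 falls, 5 were outside genes and the other was at Rev1.

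On the first day in TET_WT, Gm19689 rose by 29.8 points, Sycp3 by 12.9 and Dlk1 by 12.2. Without the third TET_WT library of D1 the rise at Sycp3 was 8.33 points and no longer called. Clca3b fell by 15.9 points, from 21.6%, 22.0% and 39.9% to 12.5%, 9.49% and 13.9%, and by 9.82 (limma adjusted p = 0.0519) without the third D0 library. In TET_KO on the first day, Flg rose from 44.9%, 69.1% and 51.6% to 83.6%, 73% and 84.1%, and Lrmda rose by 21.2 points. On the second day Ston2 rose by 26.5 and Shq1 by 24.7, while Gpc6 fell by 15.7.

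DNMT_WT began with the lowest mean and had the most dense windows called on the second day. Of the 769 gains, 286 lay in gene bodies, 242 outside genes, 162 near gene ends and 79 at starts. Kif26a, a kinesin family gene, went from 12.9%, 13.4% and 8.54% on D1 to 69.3%, 60.9% and 72.0% on D2, a rise of 55.8 points (SE 3.43, limma adjusted p = 2.47e-15). Chst11, a chondroitin sulfotransferase, rose by 51.6 points, and the window at chr10:105677276-105678159 rose by 57.9. By list, the counts were 7 of 22 germline windows (median change 5.82 points), 9 of 25 protocadherin windows (7.18), 12 of 262 homeobox and Pax windows (1.087), 6 of 86 blood and endothelial, 5 of 87 mesoderm and endoderm, 4 of 59 imprinted and 2 of 66 Hox windows. Over all 15884 dense windows 769 were called higher, with a median of 0.4031, and over all windows 94.9% were. The shares of the homeobox and Pax list and of the mesoderm and endoderm list were near that of all dense windows.

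In DNMT_WT the Dazl window was called on both days and those of Sycp1, Slc25a31 and Mael on the second. Dazl went from 2.03%, 3.41% and 4.33% on D0 to 23.1%, 20.9% and 17.1% on D1 and 64.8%, 67.2% and 55.7% on D2, rises of 17.1 and 42.2 points. Sycp1 rose by 30.1 points on the second day, from 9.41%, 13.6% and 8.08% to 42.2%, 43.3% and 36.0%. Slc25a31 rose by 29.2 points and Mael by 11.8. The D2 values of Dazl in DNMT_WT overlapped those of TET_WT on D2, at 59.9%, 65.0% and 50.9%. After centring on the library median, 40.5 points higher on D2 than on D1, the rise at Dazl was 1.73 points and the changes at the other 3 turned negative.

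Falls in DNMT_WT were few and mostly single-library. From D1 to D2 the 4 were Gm36816, Fhl4, Snx13 and Rbm27, the last 3 with 1 high D1 library at 33.3%, 33.3% and 31.1%. Gm36816 fell by 10.3 points (SE 4.95, limma adjusted p = 0.0477) and lost its call when any of 5 of the 6 libraries compared was left out. From D0 to D1 the 4 were S100a7l2, Usp31 and a pair of windows at Rims2, the last 3 with the first D0 library alone at 41.0%, 32.8% and 50%.

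**Figure D5:**
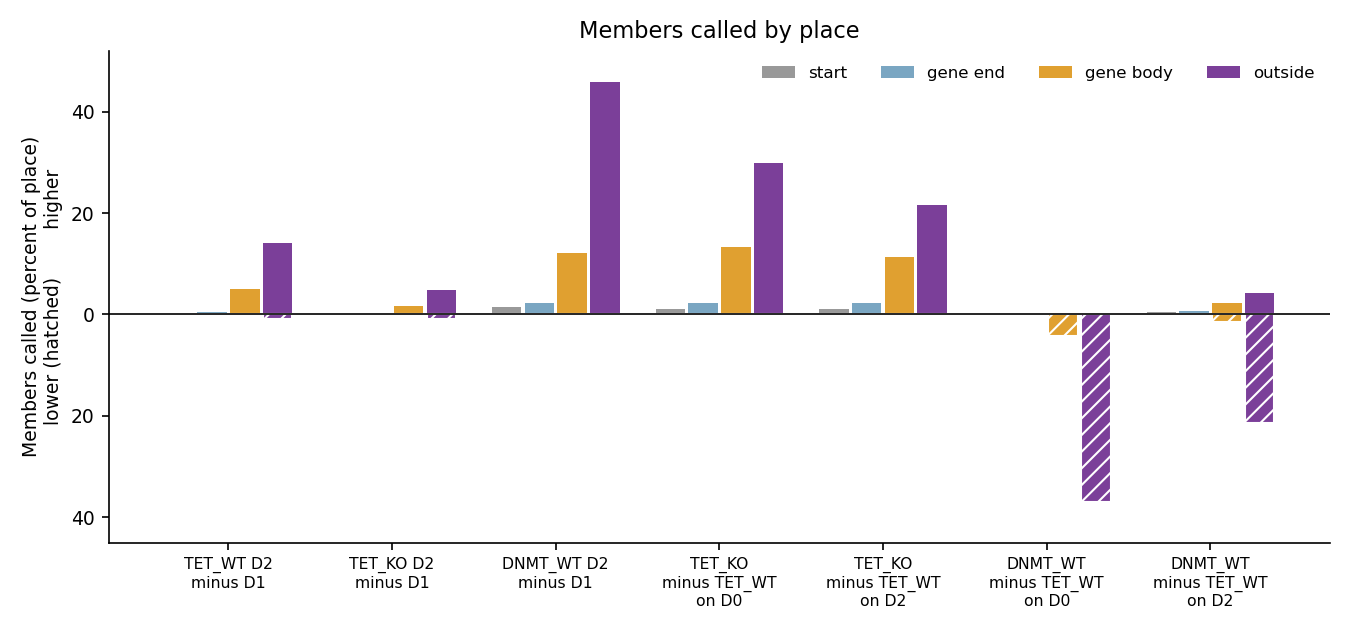
Percent of the dense windows of each place (y) that were called higher (upward bars) or lower (downward hatched bars) in 7 comparisons (x); colours are start, gene end, gene body and outside genes, of 5646, 7338, 2371 and 529 windows. The windows outside genes have the tallest bars for DNMT_WT D2 minus D1, where 242 were called higher, and for DNMT_WT minus TET_WT on D0, where 196 were called lower.

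Windows called in independent comparisons were set side by side. The 712 windows higher in TET_KO on D0 and the 769 that gained in DNMT_WT on the second day share no library, and 512 windows were in both, 71.91% of the first and 66.58% of the second. Over all windows the same shares were 99.74% and 97.56%. The 237 gains of TET_WT on the second day included 218 that also gained in DNMT_WT, 91.98% of the first and 28.35% of the second, where the shares over all windows were 99.95% and 92.68%. The 81 gains of TET_KO on that day included 76 that gained in DNMT_WT, 93.83% and 9.883%, against 99.95% and 69.26% over all windows. In each pair the shares of dense windows were below those of all windows. The call rates differed widely, since the gains of DNMT_WT covered 94.9% of all windows and 769 of the 15884 dense windows. With call rates this unlike, the shares do not compare agreement between dense windows and all windows.

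Finally the 2 wild-type lines were compared at matched days. On D0 limma called 3 dense windows higher in DNMT_WT (background 0.0009%) and 328 lower (88.9%), and on D1 it called 6 higher (0.0126%) and 281 lower (85.6%). On D2 the calls were 149 higher (background 1.78%) and 161 lower (10.5%). The difference between higher and lower on D2 turned with several settings: with a minimum of 5 points 568 were higher and 215 lower, and without the second DNMT_WT library of D2 164 were higher and 140 lower. Without the second TET_WT library of D2 the counts were 153 and 152, and after centring they were 307 and 125. On D0 centring turned the split to 15581 higher and 168 lower. The median difference on D2 was 0.2344 points over dense windows and -2.739 over all windows.

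Place separated the D2 directions. At starts 24 windows were called higher and 3 lower in DNMT_WT, near gene ends 48 and 12, in gene bodies 55 and 33, and outside genes 22 and 113. Catsperg1, a subunit of the sperm calcium channel, had 1.47%, 1.39% and 1.05% in TET_WT on D2 and 48.0%, 39.0% and 48.6% in DNMT_WT, 43.9 points higher (SE 2.28, limma adjusted p = 1.44e-13). TET_KO held 48.7%, 51.6% and 41.4% at this window on D2, and overlapped DNMT_WT. Crlf2, a cytokine receptor, was 31.1 points higher in DNMT_WT, and Elfn2 29.5 points higher.

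Of 59 imprinted windows, 10 were called lower in DNMT_WT on D0, when 2.065% of dense windows and 88.9% of all windows were. On D2, 8 of them were lower and 2 higher, beside 1.014% lower and 0.9381% higher among dense windows and 10.5% and 1.78% among all windows. On D2 Peg13 was 49.2 points lower, Mest 23.0, Airn 21.6, Peg3 20.1 and Kcnq1ot1 19.3. The DNMT_WT libraries on D2 held 6.40%, 1.14% and 1.26% at Mest, 1.09%, 0% and 0.641% at Kcnq1ot1 and 0.258%, 1.83% and 1.04% at Peg3. These values did not overlap those of TET_WT, which were 47.8%, 9.04% and 21.0% at Mest, 17.3%, 9.56% and 32.8% at Kcnq1ot1 and 19.8%, 18.1% and 25.4% at Peg3. Germline windows went the other way on D2, with 3 of 22 higher and 0 lower by limma, and 0 lower at 10 points with p unadjusted. On D0 Dazl had been 32.2 points lower in DNMT_WT.

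Among other windows, Alpk1 was 66.0 points lower in DNMT_WT on D0 and the window at chr10:105677276-105678159 67.3 points lower. On D2 Gpc6 was 48.8 points lower. The 3 windows higher in DNMT_WT on D0 were those at Usp31 and Rims2 that rested on a single library. On D1 the 6 higher ones were at Ston2 (11.7 points), Lmbrd1 (11.6), Atxn1l (10.7), Fhl4, Rbm27 and a place outside genes on chromosome 5. Lmbrd1 rested on the third DNMT_WT library at 32.7%, and without it the difference was 1.11 points. Without the third library Ston2 was 8.86 points higher, and without the first Atxn1l was 9.80 points higher, so neither kept its call.

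The gain from D0 to D2 was compared between TET_KO and TET_WT as a difference of differences. Limma called 81 dense windows with a smaller gain in TET_KO (background 44.2%) and 9 with a larger gain (background 2.5%). On the log-odds scale, which stretches values near 0 and 100%, 0.3651% of dense windows were called in place of 0.5666%. Gm19689 gained least by comparison, going in TET_WT from 6.07%, 24.3% and 27.9% to 60.4%, 67.1% and 58.8% and in TET_KO from 60.2%, 47.0% and 67.8% to 64.4%, 73.3% and 68.3%, a difference of -32.4 points (limma adjusted p = 0.000448). TET_KO began near the level that TET_WT reached. Gm51701 differed by -24.0 points in another way, since TET_KO stayed near 0 while TET_WT rose.

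The longest run of adjoining dense windows was chosen by position and held 12 windows at chr17:39843269-39849015, 5747 bp. The annotation places the ribosomal RNA pseudogene Rn18s-rs5 and the gene AY036118 there. Ribosomal RNA genes exist in many copies, so reads may come from other copies and the place of these values is uncertain. The mean over the 12 windows was 3.89% ± 0.0154 (SD, n = 3) in TET_WT on D0 and 0.937% ± 0.0700 in TET_KO. On D2 the means were 8.42% ± 0.997 and 2.86% ± 0.103, and DNMT_WT stood at 0.409% on D0 and 2.07% on D2. All 12 windows were lower in TET_KO on each day, by 2.34 to 3.74 points on D0, where the highest limma adjusted p was 0.00252, and thus under the limit of 10 points. At any size, 117 of the 15884 dense windows were lower on D0, these 12 among them, and 3815 were higher.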

How the data were processed

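The authors deposited 1 methylation value in percent for each window and library, as a table of 27 columns. Per the submitters' processing notes, the tools were Trim Galore 0.6.6, cutadapt 2.3 and Bismark 0.23.0 and the build was GRCm38. Read counts, a coverage filter and the making of the windows are not given in the sources used here. The percent values were used as deposited. Window length was end minus start plus 1. One mean for each of the 9 groups was fitted to 444250 nuclear windows with complete values in limma 3.58.1 (R 4.3.3, eBayes with trend), p-values were adjusted by Benjamini-Hochberg over all windows, and a call needed an adjusted p under 0.05 and 10 points. The fitting script was tested on simulated data. Named windows were, for each comparison, the called ones with the largest difference and separate replicates (up to 10 or 5 in each direction), up to 4 for each gene list, and those at Tet and Dnmt genes, Uhrf1 and imprinted loci. Starts and genes came from RefSeq (GRCm38.p6). The 12 gene lists and the windows were chosen with earlier results of these data known. Figures were drawn in Python 3.11.15. Replicate numbers did not pair libraries. Alternatives are given at the end. Where a small count was resolved into windows, these were named after their values were seen.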

Additional observations from a re-analysis of the deposited data

Results flagged for a closer look

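The gain in methylation from D0 to D2 differed between TET_KO and TET_WT at 90 dense windows by limma's test of the difference itself, 81 with a smaller and 9 with a larger gain in TET_KO. The largest of the smaller gains with separate replicates were at Gm19689 (-32.4 points), a window outside genes at chr4:56434897-56435631 (-30.6), Srrm2 (-25.0), Gm51701 (-24.0) and Helb (-23.8). At Helb, a DNA helicase gene, TET_WT went from 18.8%, 20.8% and 19.8% to 56.0%, 59.3% and 54.7%, and TET_KO from 65.3%, 69.4% and 67.9% to 79.3%, 85.1% and 77.7%. The chromosome 4 window held 44.4%, 53.1% and 40.4% in TET_WT on D0 and 76.6%, 77.6% and 78.4% in TET_KO, and on D2 the lines overlapped. Srrm2 likewise began at 57.5%, 60.1% and 45.4% in TET_WT and at 84.6%, 86.3% and 89.0% in TET_KO.

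Larger gains in TET_KO were called at Shq1 (25.9 points), Lhx9 (11.2), Catsperg1, Hfm1, Ano2, Pcdha7, a window of Gnas and a pair of windows outside genes on chromosome 5. Replicates were separate at only 1 of these 9, and at 38 of the 81 with a smaller gain. Shq1 lost its call without the second TET_WT library of D2 (20.8 points, limma adjusted p = 0.056) or the third (18.99, limma adjusted p = 0.0612). At Lhx9 the difference was 7.38 points without the third TET_KO library of D0, and on the log-odds scale its limma adjusted p was 0.994.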

How the results depend on the processing

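Values that follow are the percent of dense windows called, in the order TET_WT first and second day, TET_KO first and second day, DNMT_WT first and second day, TET_KO against TET_WT on D0, D1 and D2, DNMT_WT against TET_WT on D0, D1 and D2, and the difference of gains. A minimum of 20 points gave 0.03148, 0.2203, 0.01889, 0.04407, 0.06925, 2.065, 1.687, 1.864, 1.505, then 0.5351 for DNMT_WT against TET_WT on D2 and 0.1259 for the gains. A minimum of 5 points gave 1.102, 4.552, 1.259, 2.537, 2.178, 10.7, 9.639, 9.783, 8.921, then 4.929 on D2, where the balance turned, and 1.492. A limit of 800 bp gave 0.2348, 0.5636, 0.1487, 0.2035, 0.4384, 1.926, 1.926, 1.98, 1.714, 0.8532, 0.7045, 0.9785 (balance turned) and 0.1722. A limit of 1200 bp gave 0.8936, 3.206, 0.7311, 1.099, 1.852, 8.66, 7.934, 8.075, 6.623, 3.39, 3.071 and, for the gains, 1.235. Windows of 500 bp or more gave 0.8516, 2.609, 0.6988, 0.9608, 1.594, 8.232, 7.719, 7.97, 6.649, 3.527, 3.09, 3.243 and 0.9717. Centring each library on its median turned the balance of every comparison, with 0.7995, 98.94, 1.385, 92.12, 68.42, 99.02, 98.64, 98.5, 96.95, 99.15, 99.28, 2.72 and 30.33 called, by its construction, since the library medians moved by 8.46, 22.4, 8.43, 12.8, 10.3, 40.5, 30.4, 30.3, 20.7, -22.9, -21, -2.97 and -9.64 points. The log-odds scale gave 0.3651 for the gains.

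The mean level became, as the median window, 0.1371, 0.1865 and 0.3254 in TET_WT, 0.4916, 0.5372 and 0.7548 in TET_KO and 0.17, 0.2081 and 0.6098 in DNMT_WT on D0, D1 and D2, and, weighted by length, 1.891, 2.256 and 3.491, 4.33, 4.774 and 5.672, and 0.7336, 1.372 and 4.124.

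Leaving out 1 library at a time, an alternative added after seeing the data for the mean levels, gave ranges of 0.4659 to 0.6233, 1.385 to 1.813, 0.3777 to 0.5792, 0.4596 to 0.7051, 0.9318 to 0.9947, 4.885 to 5.049, 4.464 to 4.615, 4.615 to 4.766, 3.803 to 4.092, 2.059 to 2.147, 1.801 to 1.87, 1.826 to 1.92 and 0.5099 to 0.7303 percent called. The balance of DNMT_WT against TET_WT on D2 turned without the second DNMT_WT library (1.914) or the second TET_WT library (1.92). Mean levels ranged from 1.389 to 1.411, 1.648 to 1.694 and 2.552 to 2.592 in TET_WT, 3.144 to 3.218, 3.516 to 3.532 and 4.143 to 4.248 in TET_KO, and 0.624 to 0.6295, 1.051 to 1.067 and 3.074 to 3.113 in DNMT_WT.

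Of 91 named differences, centring left 51 called in the same direction and 15 no longer called, and turned 25. The 51 include differences that ran against the shift of the library medians. Centring could only enlarge those, so it is no test of them. Those turned were, for TET_KO against TET_WT on D0, Slc25a31 (-17.53), Mael (-16.92), Stra8 (-7.376), Sycp3 (-6.383), Mest (-11.61), Kcnq1ot1 (-7.52), Gnas (-8.488), Grb10 (-19.54), Hoxd3 (-2.676), Hoxd12 (-12.93), Hoxb1 (-9.695), Hoxa3 (-20.26), Dnmt3b (-17.88), Gata2 (-8.673), Flt4 (-14.36), Foxf1 (-10.34), Tbx1 (-15.37), Irx2 (-7.117), Lhx2 (-8), Pcdhgb5 (-3.991) and Pcdhga1 (-1.093). For DNMT_WT on the second day they were Sycp1 (-10.32), Slc25a31 (-11.31) and Mael (-28.63), and for TET_WT on the second day Dazl (-2.013). A replicate block left all 91 called and gave 1.958% for DNMT_WT against TET_WT on D2 in place of 1.952%; deviations of same-numbered libraries correlated between -0.158 and 0.0661 over dense windows, so the numbers do not pair libraries. The log-odds scale, no trend, only the groups compared, and windows with 2 of 3 values each ended 1 of the 91 calls, and leaving out a library ended 16 of 588. No counts were available, so what depth limits could not be measured.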

Other observations

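Some dense windows were high in a single library and low in all others. At 90 windows (0.567% of the 15884) 1 library had at least 20% methylation while the other 26 were under 10%, limits that were chosen after values had been seen. The median of the high values was 24.3% and the highest was 64.0%, in a TET_WT library of D0 at Pomgnt1. These windows were short, with a median of 400 bp and 62 of them under 500 bp. Of the 90, 30 lay at starts, 47 near gene ends, 12 in gene bodies and 1 outside genes. Each library had between 0 and 8 of them. The depth of these values is unknown. Calls at such windows made up 3 of the 11 dense windows lower in TET_KO on D0, 3 of the 4 lower in DNMT_WT on D2 against D1 and 3 of the 3 higher in DNMT_WT than in TET_WT on D0. They made up 0 of the 712 higher in TET_KO on D0.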
